A study of Mus musculus with 74 samples.

Results

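The windows described here were marked by H3K9me3 in donor cumulus cells and by no peak of any embryo. They were chosen by their values: the autosomes of mm10 were divided into 1-kb windows from the first base, and a window was selected when merged peaks of the cumulus cell (CC) list covered at least 500 of its bases and peaks of each of the 9 other lists covered 0. The 19 autosomes hold 2462755 such windows, 2395928 of them with at least 500 assembled bases. CC peaks marked 197662 windows, and 19253 of these were CC-only and are the members described here. That is 9.74% of the CC windows (Wilson 95% interval 9.61 to 9.87%) and 0.804% of the assembled windows. Absence from the other lists is what the selection used and is no finding in itself. The results are therefore about what the windows share that the rule did not use, namely base composition, recurring sequence, genes and position.

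H3K9me3 had been profiled by ultra-low-input native ChIP-seq, in which chromatin is cut with micrococcal nuclease and precipitated without crosslinking, in 74 libraries (41 precipitates and 33 inputs). CCs and oocytes came from B6D2F1 hybrid females 8 to 10 weeks old, and CC nuclei were injected into enucleated oocytes by somatic cell nuclear transfer (SCNT), then activated with SrCl2 and cytochalasin B. SCNT embryos were taken at 6 and 14 h post activation (hpa), at the 2-cell, 4-cell, 8-cell and morula stages, and as the 2 lineages of the blastocyst, trophectoderm (TE) and inner cell mass (ICM). The fertilized group held zygotes of a C57BL/6 cross at pronuclear stage 5 (PN5), whose data the study takes from earlier work, so strain, sex composition and source differ together with the type of embryo. By the labels the CC list pools 4 precipitated libraries, and each embryo list pools between 2 and 7. With 1 pooled list per group, no value below has a replicate error and no test across samples was possible. Intervals reflect counting error alone, and windows next to each other are correlated.

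H3K9me3 is written by SUV39H and SETDB1 methyltransferases, is bound by HP1 proteins and marks constitutive heterochromatin, silent retrotransposons and clusters of tissue-restricted genes. In somatic cells it is a known barrier to reprogramming, because the oocyte must remove or replace the pattern of the donor nucleus. A window outside the peaks of a list was not called there, which does not establish that the mark was missing.

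The stretches below, all from mm10 (GRCm38.p6), show the letters of members that the results turn on. In the first 6, capitals mark CpG dinucleotides, the sites of DNA methylation in mammals. The first lies in the fully covered CC-only window that sits at the median GC content and CpG count of all members, chr2:157140381-157140620 on the plus strand. The next 2 lie in the longest runs of adjacent CC-only windows, inside Vmn1r71 (chr7:10752381-10752620, plus) and in intergenic sequence far from any protein-coding gene (chr10:47484115-47484354, plus). The next lies in the window of highest CC fold enrichment under a CC peak that met no other list, inside Acsl3 (chr1:78701401-78701640, plus). The last 2 of these 6 lie in CC-only windows over the annotated 5′ ends of Vmn2r52 (chr7:10176381-10176620, minus) and Pparg (chr6:115360167-115360406, plus). The Pparg stretch ends upstream of the first base of that gene.
Median member: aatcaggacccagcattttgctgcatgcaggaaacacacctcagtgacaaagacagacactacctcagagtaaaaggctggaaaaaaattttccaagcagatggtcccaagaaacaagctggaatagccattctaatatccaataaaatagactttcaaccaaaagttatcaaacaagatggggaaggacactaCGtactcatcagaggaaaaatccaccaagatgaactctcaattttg
Vmn1r71 run: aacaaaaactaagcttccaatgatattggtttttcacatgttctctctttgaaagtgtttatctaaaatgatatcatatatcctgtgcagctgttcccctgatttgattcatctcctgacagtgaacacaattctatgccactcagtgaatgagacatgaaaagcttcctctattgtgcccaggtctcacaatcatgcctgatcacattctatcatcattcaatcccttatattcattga
Intergenic run: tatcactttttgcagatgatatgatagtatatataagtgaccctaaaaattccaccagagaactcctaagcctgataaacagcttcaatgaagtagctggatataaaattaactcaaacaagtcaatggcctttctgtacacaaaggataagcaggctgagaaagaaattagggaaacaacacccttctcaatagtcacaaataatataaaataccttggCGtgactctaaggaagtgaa
Acsl3: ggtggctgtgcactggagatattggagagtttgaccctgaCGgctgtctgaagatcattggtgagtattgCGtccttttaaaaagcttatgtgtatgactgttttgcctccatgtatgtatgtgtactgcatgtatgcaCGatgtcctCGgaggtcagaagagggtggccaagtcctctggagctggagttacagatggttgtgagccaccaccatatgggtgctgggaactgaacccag
Vmn2r52: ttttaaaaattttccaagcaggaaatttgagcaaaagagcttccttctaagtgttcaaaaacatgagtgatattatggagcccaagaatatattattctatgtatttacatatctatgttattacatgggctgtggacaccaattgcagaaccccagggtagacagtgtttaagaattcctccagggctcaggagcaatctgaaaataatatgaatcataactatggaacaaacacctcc
Pparg: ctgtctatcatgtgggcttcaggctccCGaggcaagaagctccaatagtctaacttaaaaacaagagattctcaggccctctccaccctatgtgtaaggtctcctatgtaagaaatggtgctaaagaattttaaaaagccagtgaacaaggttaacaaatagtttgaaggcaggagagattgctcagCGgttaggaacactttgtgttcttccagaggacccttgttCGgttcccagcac

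The Vmn1r71 and Vmn2r52 stretches hold 0 CpG in 240 bases, with a GC content of 36.7% and 35.8%. The median member and the intergenic run hold 1 each, at 40% and 35.4% GC. The Pparg stretch holds 3 at 45% GC and the Acsl3 stretch 4 at 49.6%, and these 2 are more GC-rich than the median window of the autosomes. None of the printed stretches was checked against a repeat annotation, so any of them may hold repeat sequence. The last stretch (chr16:36223144-36223283, minus) carries a recurring element that is described further on. In it, capitals mark AAGATGGC, the letters searched for the zinc finger protein YY1.
Element with YY1 letters: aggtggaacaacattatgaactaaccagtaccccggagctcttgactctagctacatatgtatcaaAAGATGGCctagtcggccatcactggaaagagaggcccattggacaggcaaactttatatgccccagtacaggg

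The edges of the rule cut through a continuum. Just inside it, 2105 members had from 500 to under 550 bases under CC peaks, and just outside, 2318 windows had from 450 to under 500 such bases and no other peak. A further 1268 CC windows failed only because exactly 1 other list covered 1 to 50 of their bases. The number of other lists that touched a CC window, meaning that they covered at least 1 base, was spread widely. It was 0 for 9.74% of CC windows, 1 for 10.1%, between 2 and 8 for shares of 8.34 to 10.9% each, and all 9 for 16.5%.

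Where a CC window was touched by exactly 1 other list, that list was 14 hpa in 9128 windows and 6 hpa in 4053. The morula followed with 1899 and ICM with 1426, while TE, the 8-cell stage, PN5, the 4-cell stage and the 2-cell stage gave 1059, 853, 743, 401 and 392. The 9128 windows marked in CC and touched only at 14 hpa are the closest relatives of the members and are used below for comparison.

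The same rule was applied with each list in turn as the exclusive one. CC had 19253 exclusive windows, and PN5 had 25321, which is 21.9% of its marked windows (interval 21.7 to 22.2%). The SCNT lists had between 409 (0.368%, 2-cell) and 8107 (6.83%, 6 hpa). The lists differ in length, with CC peaks over 212 Mb of the autosomes and 2-cell peaks over 123 Mb. When every list was trimmed to 123 Mb by dropping peaks of the lowest q, 9.94% of CC windows were exclusive, against 10.5% at 6 hpa, 2.29% at 14 hpa and 28.0% in PN5. By share, the order of CC and 6 hpa therefore depends on the length of the lists. By number CC stayed ahead after trimming, with 11746 exclusive windows against 11321 at 6 hpa.

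**Figure D1:**
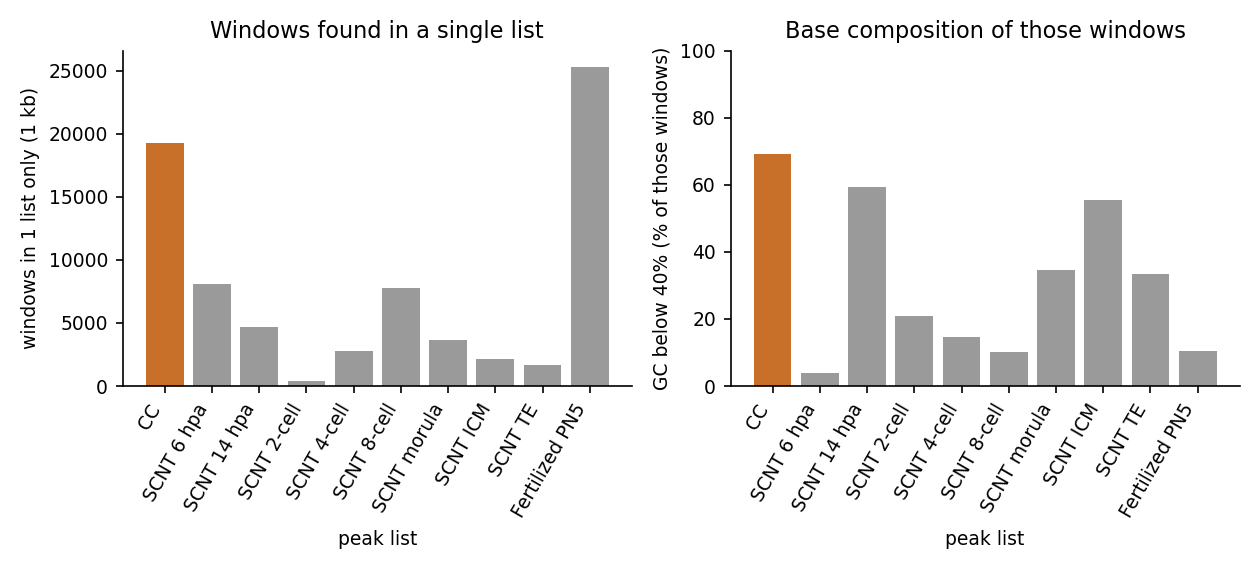
Windows covered for at least 500 bases by peaks of 1 list and for 0 bases by every other list, as numbers of 1-kb windows (left) and as the percentage of those windows with GC content below 40% (right), for the 10 pooled lists, 1 bar per list. CC (orange) has 19253 such windows, 69.1% of them below 40% GC, while PN5 has 25321, of which 10.4% are.

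CC-only windows were rich in A and T. Their median GC content was 37.8%, with 32.2% and 44.6% at the 5th and 95th percentiles, against 43.2% in the 178409 CC windows shared with another list and 41.7% in all assembled windows. GC content was below 40% in 69.1% of members (interval 68.4 to 69.8%), 26.1% of shared CC windows (25.9 to 26.3%) and 38.2% of all windows. Members thus stood on the AT-rich side of the genome, and shared CC windows on the GC-rich side. The median member held 4 CpG dinucleotides, a shared CC window 8 and a window marked in every list 23.

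Exclusive windows of other lists did not share this composition as a rule. GC content was below 40% in 4.01% of windows found only at 6 hpa and 10.4% of those found only in PN5, but in 59.4% of those found only at 14 hpa and 55.6% of those found only in ICM. Windows marked in CC and touched only at 14 hpa were close to the members, with 65.6% below 40%.

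The share of CC windows that were CC-only fell from each class of GC content to the next. It was 41.1% below 36% GC (5739 of 13974 windows), 19.7% from 36 to 38%, 13.7% from 38 to 40%, 10.1% from 40 to 42% and 6.07% from 42 to 44%. Above that it was 3.08%, 1.38% and 0.650% in steps of 2 points of GC content, and 0.371% at 50% or more (61 of 16441). CC itself marked 3.97% of all windows below 36% GC and between 8.10 and 10.1% in the other classes. In the lowest class a 6 hpa peak touched 14.0% of CC windows and a 14 hpa peak 41.5%, and in the highest class these were 98.3% and 95.1%. PN5 peaks touched 6.81% and 61.5%.

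**Figure D2:**
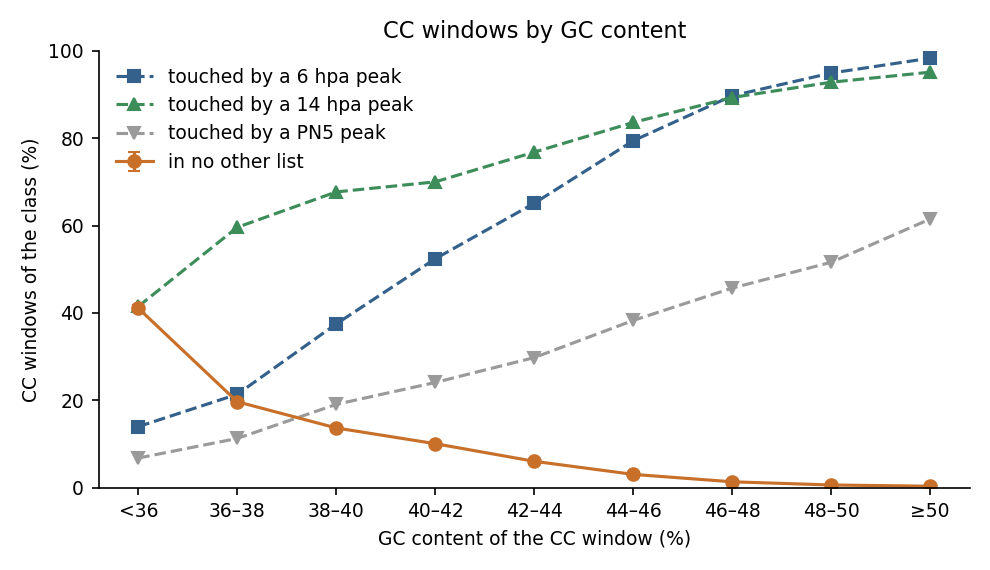
Percentage of CC windows in each class of GC content that no other list touched (orange, with Wilson 95% intervals smaller than most symbols) and that a 6 hpa, 14 hpa or PN5 peak touched (dashed lines). The CC-only share falls from 41.1% below 36% GC to 0.371% at 50% or more, while the share touched at 6 hpa rises from 14.0% to 98.3%.

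This composition held along the genome. On each of 19 autosomes more CC-only than shared windows lay below 40% GC, with 59.9 to 79.7% of members and 17.8 to 32.7% of shared windows. It also held among CC peaks of like strength and width. Of windows whose CC peak had a fold enrichment between 2.5 and 3, 70.3% of members and 29.8% of shared windows were below 40% GC, and for folds of 3.5 or more these were 56.5% and 16.1%. For CC peaks narrower than 1 kb they were 58.8% and 24.4%, and for peaks of 10 kb or wider 82.3% and 22.7%.

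The CC peaks behind the members are described here without a test, because the same list chose them. Each window was assigned the CC peak that covered most of it. The authors' fold enrichment over input ranged from 1.71 to 6.46 among members, with a median of 2.68 and a median −log10 q of 2.42, against medians of 2.97 and 3.40 for shared windows. CC peaks covered all of the window in 34.2% of members and 61.5% of shared windows. The share of CC windows that were CC-only was 20.6% in peaks narrower than 1 kb, 14.4% from 1 to 2 kb, 8.78% from 2 to 5 kb, 5.06% from 5 to 10 kb and 2.92% in wider peaks.

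Members were of 2 kinds. In 10231 of them (53.1%) the CC peak overlapped no base of any other list along its whole length, and in 9022 (46.9%) the same CC peak met another list elsewhere. Counted as whole peaks, 29678 of 141728 autosomal CC peaks (20.9%) overlapped no other list. These lone peaks had a median width of 384 bases, 154 at the least and 6757 at the most, against 893 bases for the other CC peaks. Together they covered 15.9 Mb.

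Most members lay close to a peak of an embryo. The nearest peak of any other list was a median of 654 bases away (quartiles 234 and 1661), and it was within 1 kb for 62.0% of members. The nearest list was 14 hpa for 34.8% of members, 6 hpa for 18.9%, the morula for 12.2% and PN5 for 6.64%. These lists covered 207, 138, 188 and 129 Mb of the autosomes, and distances were not computed with lists of equal length. The median distance was 1478 bases to 14 hpa, 2362 to 6 hpa and 8245 to PN5, the longest of the 9.

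The 539 members that lay 10 kb or more from every other peak (2.80%) had other surroundings. Of these isolated windows 31.2% were intergenic, against 72.7% of the 5055 members closer than 250 bases. GC content was below 40% in 51.6% and 72.8% of the same windows. The 1 farthest from any other list was 90349 bases away.

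**Figure D3:**
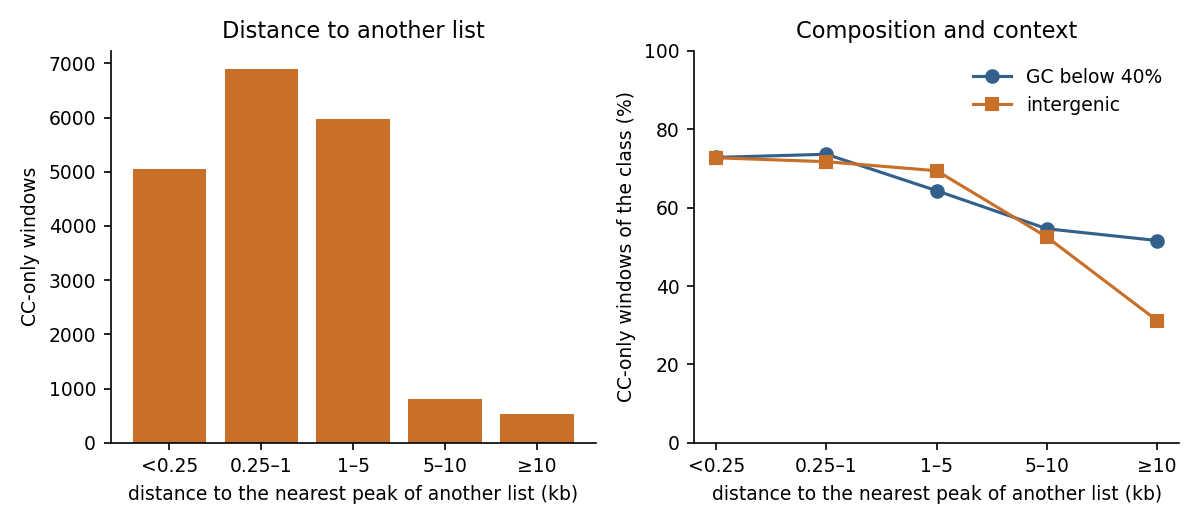
CC-only windows by the distance from the window to the nearest peak of any of the 9 other lists, in kb, as numbers of windows (left) and as the percentage below 40% GC or intergenic in each distance class (right). The class of 0.25 to 1 kb is the fullest with 6888 windows, and the intergenic share drops from 72.7% in the nearest class to 31.2% at 10 kb or more.

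Members formed 13447 single windows (69.8% of members), 2110 pairs, 373 runs of 3 kb, 81 of 4 kb, 17 of 5 kb, 5 of 6 kb and 4 of 7 kb. Of the 4 runs of 7 kb, 3 lay on chromosome 7 among vomeronasal receptor genes. The run at chr7:10749001-10756000, centred in an intron of Vmn1r71, was covered over all 7000 bases by a CC peak of 2.98-fold enrichment, had a GC content of 34.3% and ended 17 bases from a peak of another list. The run at chr7:23762001-23769000 overlapped Vmn1r174, and the run at chr7:7498001-7505000 overlapped the annotated gene Gm3563, 17983 bases from Vmn2r32. The last, chr10:47479001-47486000, lay 1608833 bases from its nearest protein-coding gene, Grik2. Of the 5 runs of 6 kb, 3 lay on chromosome 7, 1 on chromosome 12 and 1 on chromosome 17, where it overlapped Vmn2r95.

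The most widespread recurring letters among the members belonged to a single element. Words of 20 bases were counted in the 11101 CC-only windows of the odd-numbered autosomes, and words present in at least 0.4% of these windows were chained from the most widespread one, which occurred in 747 windows (6.73%). The chain was 3017 bases long, with 40.9% GC, 23 CpG dinucleotides, a reading frame open for 778 codons from its first base to base 2334, and a tail of 11 A. From general knowledge its letters are the 3′ part of a LINE-1 retrotransposon, an element that copies itself through RNA and whose second frame encodes a reverse transcriptase. No repeat annotation was used.

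The even-numbered autosomes had no part in building the chain. There, a window was counted when at least 50 of its 20-base words matched. This was so in 26.9% of the 8152 members (interval 25.9 to 27.9%), 14.8% of shared CC windows (78069 windows), 6.55% of all windows, 2.22% of windows found only in PN5 and 1.18% of windows marked in every list. Windows marked in CC and touched only at 14 hpa had the highest share among these, 32.3% (30.8 to 33.9%). Members and these relatives thus carried the element more often than other CC windows did.

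The difference from shared CC windows depended on GC content. Below 36% GC the element was in 7.73% of members and 8.12% of shared CC windows, and their intervals overlapped. From 36 to 38% the shares were 31.5% and 27.4%, from 40 to 42% 41.5% and 25.4%, from 42 to 44% 40.5% and 21.3%, and from 44% upwards 22.6% and 5.82%. Members that matched the element had a median GC content of 39.6%. Those that did not match were still AT-rich, with 70.8% below 40% GC against 24.2% of unmatched shared windows. Unmatched windows may still hold LINE-1 sequence, because the chain has only the 3′ part and words had to match exactly.

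Along the chain, members matched most often between bases 1801 and 1900 (13.0%), within the open frame, and least often at the ends. The first 100 bases matched in 4.98% of members and 2.59% of shared CC windows, and bases 2801 to 2900 in 6.43% and 4.51%. Copies of LINE-1 resemble one another, so the copy a read came from is uncertain.

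**Figure D4:**
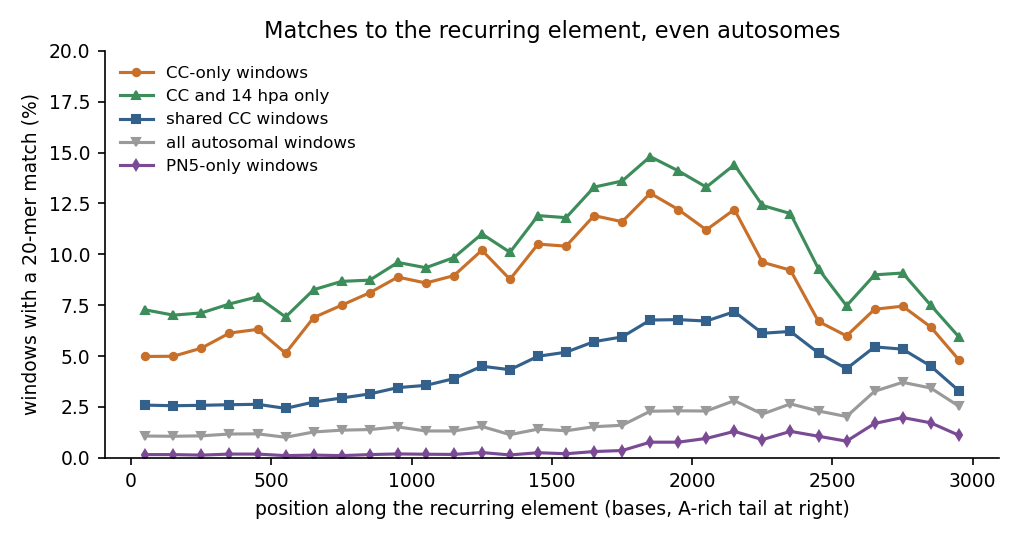
Percentage of 1-kb windows of the even-numbered autosomes with at least 1 matching 20-base word in each 100-base step of the recurring element, for CC-only windows and 4 other sets of windows. CC-only windows reach 13.0% between bases 1801 and 1900, where shared CC windows are at 6.77% and all autosomal windows at 2.29%.

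Motif letters of the factors the study examined were searched on both strands, without regard to overlap between them. CCANNAGGG, for the insulator protein CTCF, was in 6.77% of members, 12.2% of shared CC windows and 11.4% of all windows. Within classes of GC content the shares lay close together, at 4.35%, 4.12% and 5.29% below 38% GC, and 8.12%, 8.28% and 9.0% from 38 to 42%. AAGATGGC, for YY1, was in 9.04% of members, 13.6% of shared CC windows and 8.62% of all windows. Within classes of GC content the order of members and shared CC windows varied. The shares were 4.87% and 4.27% below 38% GC, 9.65% and 8.67% from 38 to 42%, 22.3% and 16% from 42 to 46%, and 14.1% and 19.9% at 46% or more.

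The YY1 letters of a minority of members sat at a fixed place in the recurring element. Of 1741 members with the letters, 352 (20.2%) held them in the context of element base 2816, shown in the last printed stretch, against 9.32% of such shared CC windows and 0.673% of such windows marked in every list. This count covered all autosomes, including the odd-numbered ones whose members built the chain. The comparison is therefore not independent of how the element was chosen. A match of letters is a description and not a bound site. Runs of at least 8 TTC or AAG units were in 0.296% of members, 0.313% of shared CC windows and 0.455% of all windows.

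By gene context the members resembled other CC windows. The centre of the window was intergenic in 69.4% of members (interval 68.7 to 70.0%), 68.9% of shared CC windows (68.7 to 69.1%) and 51.6% of all windows. It was intronic in 27.5% of members, in a coding exon in 0.779% and in another exon in 2.32%. The intergenic share of members was above that of shared windows on 10 of 19 autosomes.

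Of 20807 autosomal protein-coding genes, 1999 (9.61%) had a CC-only window in the gene body, and 113 (0.543%) had one over the annotated 5′ end. Such a window held the first base of the gene, whether or not a CC peak covered that base. Counted per gene, 4725 of 1025080 body windows were CC-only (0.461%), and so were 4725 of the 47584 body windows that CC peaks marked (9.93%). These are the backgrounds for the gene groups that follow, whose members were listed by symbol. Genes of such clusters resemble each other, so the placing of reads among them is uncertain.

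Vomeronasal receptor genes, which are used in sensory neurons of the nose, stood above these backgrounds. Of 121 genes for vomeronasal type 2 receptors, which detect peptide pheromones, 86 (71.1%) had a CC-only body window, and 15 had a CC-only window over the 5′ end. CC-only windows made up 393 of the 1450 CC windows in their bodies (27.1%, interval 24.9 to 29.4%). Of 208 genes for vomeronasal type 1 receptors, which detect small volatile molecules, 67 (32.2%) had a body window, 30 had a 5′ end, and 126 of 613 CC windows (20.6%, 17.5 to 23.9%) were CC-only. Of 1128 olfactory receptor genes, 104 (9.22%) had a body window, close to the background for all genes, and 23 had a 5′ end. The CC-only share of their CC windows was 20.7% (133 of 643).

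All 11 Skint genes, relatives of a membrane protein needed to select T cells of the skin epithelium, had a CC-only body window. These windows were 178 of 454 CC windows (39.2%, interval 34.8 to 43.8%), the highest share among the listed groups with at least 100 CC windows. Of 102 cytochrome P450 genes, which encode oxidases of drug and steroid metabolism, 28 (27.5%) had a body window, with 97 of 769 CC windows (12.6%, 10.5 to 15.1%). The leading ones were Cyp2c39 with 15 members of 32 CC windows and Cyp2c29 and Cyp2c38 with 11 each, neighbours on chromosome 19. Among C-type lectin and natural killer receptor genes 9 of 56 had a body window, with 16 CC-only windows (15.8% of their CC windows, 9.99 to 24.2%).

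Other families had lower shares of their CC windows or few CC windows. For zinc finger genes of the Zfp and Zscan series, many of which encode repressors of retrotransposons that recruit H3K9 methylation, 68 of 407 genes (16.7%) had a body window, and 155 of 1831 CC windows (8.47%, interval 7.28 to 9.83%) were CC-only. Clustered protocadherins, adhesion molecules that give neurons their identity, had 33 of 57 genes and 152 of 2028 CC windows (7.50%), counted per gene although their annotated bodies overlap and hold 263 distinct CC windows. Cadherins had 29 of 892 (3.25%) and solute carriers 51 of 556 (9.17%). Most cadherin CC windows lay in Cdh13 (5 of 482 CC-only) and Cdh4 (0 of 237), while Cdh11 had 8 of 24. UDP-glucuronosyltransferases had 1 of 160 (0.625%), serpins 1 of 44, major urinary proteins 1 of 56, the prolactin family 3 of 22 and defensins 5 of 24. Most of the 160 were the same windows of a single locus, counted again for each overlapping Ugt1a gene. Keratins had 0 of 6, and immunoglobulin and T-cell receptor V segments 2 of 73.

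**Figure D5:**
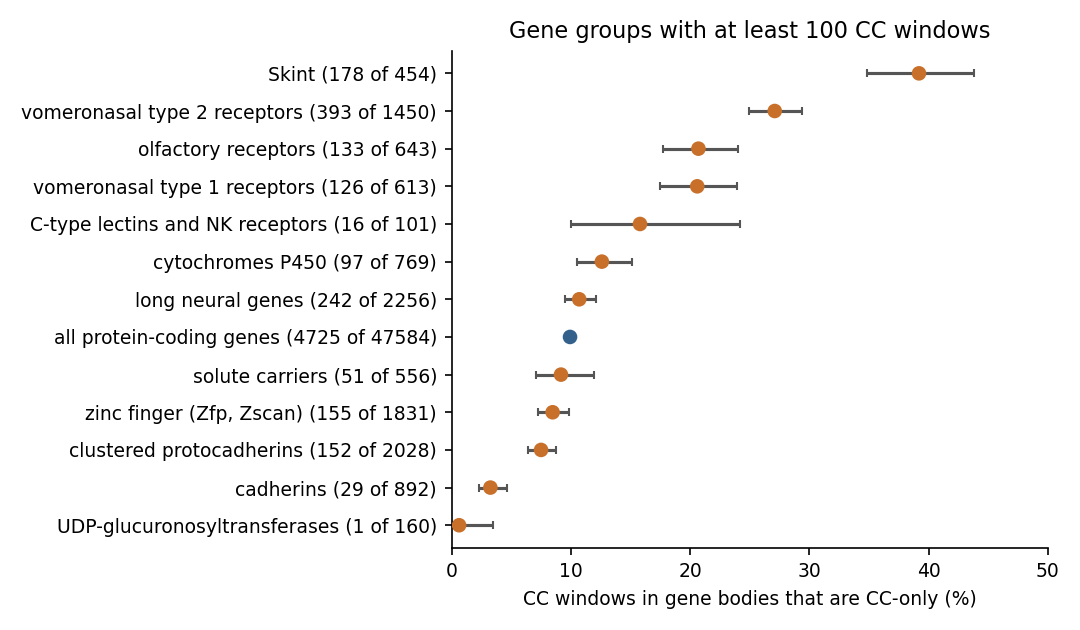
Percentage of the CC windows in gene bodies that are CC-only, with Wilson 95% intervals (counting error only), for the listed gene groups with at least 100 CC windows, with the windows counted per gene given in brackets. Overlapping gene bodies count the same window more than once, as for protocadherins and UDP-glucuronosyltransferases. Skint genes are at 39.2% and vomeronasal type 2 receptors at 27.1%, right of all protein-coding genes (blue, 9.93%), and cadherins are left of them at 3.25%.

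Part of the spread between families went with their base composition. CC windows in the bodies had a median GC content of 37.3% in Skint genes and 38.2% in vomeronasal type 2 receptors, against 43.2% in all protein-coding genes. Counting each window once and only below 38% GC, 54.0% of CC windows of Skint genes, 46.4% of vomeronasal type 2, 42.4% of vomeronasal type 1 and 38.4% of olfactory receptors were CC-only, against 29.8% for all protein-coding genes and 11.2% for zinc finger genes. From 38 to 42% GC the shares were 34.5%, 14.4%, 13.8% and 21.2%, against 13.2% and 11%. At 42% or more they were 11%, 2.85%, 3.97% and 4.87%, against 3.72% and 3.92%. For vomeronasal type 2 receptors the margin over all genes was therefore present below 38% GC and not at 42% or more. Cytochrome P450 genes had 33.2%, 9.96% and 2.52% in the same classes, above all genes below 38% GC and under them in the others.

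The protein-coding genes with the most members were long. Skint5 (chr4:113477891-113999503) had 86 CC-only windows among 220 CC windows and Skint6 had 45 among 94. Agbl1 (chr7:76229887-77124698), a carboxypeptidase that trims tubulin tails, had 79 among 286. Gpc5, a heparan sulfate proteoglycan of the cell surface, had 67 among 337. Csmd1, a membrane protein of the complement system and brain, had 64 among 244, and Unc5d, a receptor of axon guidance, had 63 among 315.

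Next came Xkr4 with 53 among 164, Astn2, which acts in migration of neurons, with 47 among 217, Rp1, a microtubule protein of photoreceptors, with 35 among 94, and the delta-catenin gene Ctnnd2 with 34 among 201. The neurotrimin gene Ntm and Fam135b had 21 each. The other 3 of these 15 genes were gene models on chromosome 18 that span the protocadherin cluster, with 24 to 27 members each.

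Among genes with at least 10 body windows, receptors made up most of the highest shares. CC-only windows were 12 of the 24 body windows of Vmn2r52, 46.2% of Olfr139, 45.5% of Vmn1r184 and 43.2% of Vmn2r95 (16 of 37). Vmn2r33, Vmn2r51, Vmn2r37 and Vmn2r98 had between 31.0% and 37.5%. The other 2 of the first 10 were Sult2a7 (31.0%), a sulfotransferase, and Zfp97 (30.8%). Over all protein-coding genes the share was 0.461%.

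Of 51 long neural genes, adhesion molecules, receptors and scaffolds of synapses, 37 (72.5%) had a CC-only body window. Their bodies are long, however, and 242 of 2256 CC windows (10.7%, interval 9.52 to 12.1%) and 0.438% of all body windows were CC-only, both near the background for all genes. Csmd1 led with 64, followed by Ntm with 21, the neuregulin gene Nrg1 with 16 and the scaffold gene Dlg2 with 14. Csmd2 had 282 CC windows and 0 of them were CC-only.

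In 25 genes of the cumulus and granulosa lineage, CC peaks marked 16 of 1446 body windows, spread over 5 genes, and 4 of the 16 were CC-only. Fshr, the receptor for follicle-stimulating hormone, had 11 CC windows, 3 of them CC-only, and the nuclear receptor gene Nr5a2 had 1, which was CC-only. No expression was measured in these files, so the identity of the cells was not checked by markers. Of 17 pluripotency and trophectoderm genes, 1 (Esrrb) had CC windows, 2 in all, and none was CC-only.

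Of the 113 genes with a CC-only window over the 5′ end, 52 lay on chromosome 7. The 10 with the highest CC fold belonged to Slco1a6 (3.72-fold), which encodes an organic anion transporter, Pcdhb22 (3.62), Eid2 (3.6), Olfr1454 (3.57), Gm13040 (3.44), Zscan4e (3.40), Vmn1r171 (3.36), Vmn1r175 (3.30), Vmn1r157 (3.26) and Gm28360 (3.25). Receptor genes supplied 68 of the 113. The window at Eid2 held 50 CpG dinucleotides at a GC content of 48.8%, whereas those at Vmn1r171 and Olfr1454 held 2 each.

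Members of the Zscan4 cluster on chromosome 7, genes that are switched on at zygotic genome activation, had CC-only windows over the 5′ ends of Zscan4c, Zscan4d, Zscan4e, Zscan4f and Zscan4-ps3. CC fold was 2.75, 2.90, 3.40, 2.91 and 3.21 in these windows. In the bodies, 4 or 5 windows per gene were marked in CC, and 1 was CC-only for Zscan4e, 1 for Zscan4-ps3 and 0 for the others, so other lists touched most of each body. For Zscan4e and Zscan4-ps3 this was the same window as over the 5′ end. Zscan4-ps1 had 1 CC-only window among 4 CC windows of its body and none over its 5′ end. The copies are nearly alike, and reads may be shared between them.

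Pparg, the nuclear receptor of fat cell differentiation, had a CC-only window over the 5′ end (3.0-fold, 573 bases covered, 35 CpG in the whole window). The printed stretch of that window holds 3 CpG and lies upstream of the gene, whose first base is chr6:115360951. Pparg also had 1 CC window among its 129 body windows, which was CC-only as well. Kansl3, a subunit of a histone acetyltransferase complex, had a CC-only window over the 5′ end with 57 CpG and a GC content of 53.4%. The most CpG-rich windows over a 5′ end were those of Ric1, with 137 CpG at 75% GC, and H2-DMa, a chaperone of peptide loading on MHC class II, with 107 CpG at 66.3% GC. CC fold was 2.44 in both, with a −log10 q of 1.79 for Ric1 and 1.99 for H2-DMa. CC peaks covered 560 and 673 bases of these windows, and CpG were counted over whole windows. These 4 genes were picked out here after their values were seen.

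Members of high CC fold that are reported here overlapped no vomeronasal or olfactory receptor gene. A window in an intron of Acsl3, a fatty acid activating enzyme, had a CC fold of 5.88 under a lone CC peak of 533 bases, with no other peak within 21556 bases. A single CC peak of 5.87-fold enrichment on chromosome 15 supplied a pair of members, and an intergenic window near Ankrd12 had a fold of 5.76. A window 94931 bases from Sash1 had 5.49. Windows in introns of Sult2a3, Adgrv1 and Mical2 had 5.12, 5.07 and 5.06.

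Members were unevenly spread. Of 2413 bins of 1 Mb with assembled sequence, 281 held no member and the median bin held 3, while the fullest held 215. The 100 fullest bins held 41.7% of all members and 21.1% of all CC windows. The first and second were adjacent, chr17:19000001-20000000 with 215 members of 620 CC windows (34.7%) and chr17:18000001-19000000 with 184 of 677. All 6 protein-coding genes of the first were vomeronasal type 2 receptors.

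Of the other 8 bins, 1 adjoined these on chromosome 17 and 5 lay on chromosome 7, among vomeronasal receptor, Nlrp, Sult2a and Obox genes, with 118 to 147 members each. The bin at chr4:113000001-114000000, which holds Skint5 and Skint6, had the highest share, 123 of 323 CC windows (38.1%). The bin at chr12:6000001-7000000 held 121 members and 0 protein-coding genes.

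By chromosome, the CC-only share of CC windows ran from 4.82% on chromosome 5 to 15.2% on chromosome 17, with a median of 9.87%. Chromosome 7 held the most members, 3286 of 29779 CC windows, and chromosome 19 the fewest, 428 of 3368.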

How the data were processed

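Peak lists deposited for 10 groups (1 pooled list per group, 74 libraries in all) were analysed. The authors trimmed reads with Cutadapt 1.16, aligned them to mm10 with BWA mem, merged alignments with SAMtools, removed duplicates and drew the same number of reads per group with Picard, and called broad peaks over input with MACS2. Other tool versions and the q threshold are not given in the sources used here. Of each deposited list the positions, the fold enrichment (a linear ratio over input) and the −log10 q value as the authors' peak caller wrote it were used, and score, name, strand and −log10 p were not. Read depth per library is not in the lists.

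Peaks were merged within a list and their bases counted in 1-kb windows with Python 3.11.15, numpy 2.4.6 and pandas 2.3.3, and figures were drawn with matplotlib 3.10.9. The window sums, the rule and the chaining of recurring words were tested on simulated data. Sequence came from GRCm38.p6 (RefSeq) and genes from GENCODE M21. A window lay in a gene when its central base did, and over a 5′ end when it held the first base of the gene. A CC peak did not have to cover that base. Shares have Wilson 95% intervals over windows, which cover counting error only. No count model, no test across samples and no enrichment test was run, since each group is 1 pooled list.

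Named genes were the 15 with the most CC-only body windows, the 10 with the largest share among genes with at least 10 body windows, the 10 with a CC-only 5′ end of highest CC fold, and members of the listed groups. Named regions were the 10 longest runs, the 10 windows of highest fold and the 10 fullest 1-Mb bins. Members and lists were chosen with earlier results of these data known. Alternatives to the thresholds, the lists and the window start were computed. Some items that these rules select are not reported here.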

Additional observations from a re-analysis of the deposited data

Results flagged for a closer look

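The rule covers autosomes, and the sex chromosomes were looked at outside it, as signal in data that the comparisons leave out. The same thresholds gave 6251 CC-only windows on chromosome X. They were 15.6% of the 40053 CC windows there (Wilson 95% interval 15.3 to 16%), beside 15.2% on the highest autosome, chromosome 17, whose interval of 14.4 to 16.1% overlaps. On chromosome Y the same thresholds gave 12 windows of 336 marked in the CC list (3.57%, 2.05 to 6.14%). CCs come from females, so the windows on Y are flagged here. The origin of those reads, including their placement among similar sequences, was not tested.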

How the results depend on the processing

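No paired analysis was possible because every group is a single list of pooled libraries, which also allows no replicate to be dropped. The number of CC-only windows stayed within 1.5 times 19253 with only peaks at −log10 q 2 or above (23642), with windows starting at position 500 (19252), without PN5 (19996) and without 14 hpa (28381). It was 6575 when CC peaks had to cover 1000 bases, 57641 for 1 base, 51769 when other lists could cover less than 500 bases, 7310 with no other peak within 1 kb either side and 11746 with lists trimmed to equal length. In these 5 settings the CC-only share of CC windows was 5.66, 16.6, 26.2, 3.70 and 9.94%, and it was 13.3% with the q limit, 10.1% without PN5, 14.4% without 14 hpa and 20.9% for whole CC peaks. The share of members below 40% GC was 75.9, 63.1, 58.7, 62.3 and 62.3% in the same 5 settings, 61.2% with the q limit and 68.0% without 14 hpa. In all 9 alternatives it exceeded that of shared CC windows, by 33.3 to 51.2 percentage points. The intergenic share was 71.2% for 1000 bases, 65.4% for 1 base, 70.4% for less than 500 bases, 64.8% with no peak within 1 kb and 70.5% without 14 hpa. It was below that of shared CC windows for 1 base and with no peak within 1 kb, and above it otherwise. Stricter or looser limits on covered bases and on neighbouring peaks lower or raise the count by construction, and for the q limit, the trimmed lists and the shares the cause was not tested. A deviant library cannot be seen in a pooled list, and a region under the threshold of a list counts as unmarked there.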
